A study of Mus musculus and Rattus norvegicus with 32 samples.

Results

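The genes described here encode the 3 chains of fibrinogen (Fga, Fgb and Fgg), the carrier subunit of the clot-stabilising transglutaminase factor XIII (F13b), plasminogen (Plg) and the plasma serine protease hyaluronan binding protein 2 (Habp2). They were chosen by gene symbol, with the TCE and corn oil values of these arrays already known, from probe sets to which the platform annotation gives 1 symbol. The 6 genes were covered by 7 of 12422 mouse probe sets, and 4 of them were covered by 8 of 8740 rat probe sets. Together they made up 6 of 9931 genes and 15 of 21162 probe sets, and F13b and Habp2 had no such probe set among those of the rat.

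The livers came from male B6C3F1 mice and male SD rats. Animals received trichloroethylene (TCE, a chlorinated solvent) at 1500 mg per kg in corn oil by gavage, either as a single dose (8 weeks of age) or daily over 14 days (10 weeks of age). The animals they were set against received corn oil alone on the same schedule. The livers were collected 18 h after dosing ended, and each of the 8 combinations of species, schedule and treatment was measured on 4 Affymetrix arrays. The labels do not say whether each array had an animal of its own, so the errors measure the spread between these arrays, and they name no batch.

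Each deposited value is a ratio to the median of 4 corn oil arrays, those of its own species and schedule. No signal level is given, so levels cannot be compared between genes, species or schedules, and the labelled tissue could not be checked against the level of liver markers. In whole liver, fewer cells of a type and less RNA per cell cannot be told apart. RNA quality differed between the groups: the log2 difference between the 3' and the 5' probe set of the Gapdh control was above 1 on 9 of 16 TCE arrays and on 1 of 16 corn oil arrays. Those arrays were 3 of 4 TCE arrays of each mouse schedule, 1 of 4 TCE arrays of rats after a single dose, 2 of 4 TCE arrays of rats after repeated doses and mouse corn oil array 1 of the repeated schedule.

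Fibrinogen is a plasma glycoprotein that hepatocytes assemble from its alpha, beta and gamma chains and that thrombin turns into fibrin. Factor XIII cross-links the fibrin, and its B subunit, made in the liver, carries and protects the catalytic A subunit in plasma. Plasmin, released from liver-made plasminogen by plasminogen activators, dissolves the clot. The chain genes are induced together by IL-6 through STAT3 and C/EBP factors in the acute phase response. Basal transcription of Fga and Fgb in hepatocytes depends on HNF1.

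The 3 chain genes stand side by side on mouse chromosome 3 in the order Fgg, Fga, Fgb, with Fgg and Fga on the plus strand and Fgb on the minus strand (RefSeq, GRCm38.p6). Their promoters are shown because the 3 mouse transcripts moved together below. The 250 bases before each start are given 5′ to 3′ along the gene's own strand, from chr3:83007474-83007723 (+) for Fgg, chr3:83025903-83026152 (+) for Fga and chr3:83049864-83050113 (-) for Fgb. Capitals mark matches to CTGGGAA (the IL-6 response element), TTGCNNAA (a C/EBP motif) and GTTAAT (part of an HNF1 site), each searched on both strands.
Fgg promoter: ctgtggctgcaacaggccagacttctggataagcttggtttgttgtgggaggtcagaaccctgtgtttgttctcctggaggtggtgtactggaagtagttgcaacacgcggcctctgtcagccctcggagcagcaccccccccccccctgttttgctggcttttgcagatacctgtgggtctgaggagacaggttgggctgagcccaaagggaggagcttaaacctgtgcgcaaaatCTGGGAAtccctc
Fga promoter: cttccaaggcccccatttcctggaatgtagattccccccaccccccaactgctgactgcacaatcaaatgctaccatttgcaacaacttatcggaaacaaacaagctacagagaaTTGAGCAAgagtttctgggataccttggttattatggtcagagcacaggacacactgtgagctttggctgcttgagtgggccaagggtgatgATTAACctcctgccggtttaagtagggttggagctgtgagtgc
Fgb promoter: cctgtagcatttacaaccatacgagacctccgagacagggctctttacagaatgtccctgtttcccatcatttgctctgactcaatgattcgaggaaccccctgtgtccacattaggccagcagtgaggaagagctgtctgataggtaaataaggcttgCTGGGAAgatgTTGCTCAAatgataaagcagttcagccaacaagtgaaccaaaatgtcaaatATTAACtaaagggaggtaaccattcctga
CTGGGAA was found before Fgg and Fgb, TTGCNNAA before Fga, Fgb and Habp2, and GTTAAT before Fga, Fgb, F13b and Habp2, with 5 members searched. Plg was not searched, since no promoter sequence for it was available. Of 32851 mouse promoter windows of the same length, 9.1% held CTGGGAA, 9.56% held TTGCNNAA and 6.43% held GTTAAT. In Fgb the CTGGGAA and TTGCNNAA matches lay near each other, 91 to 85 and 80 to 73 bases before the start, and no matches overlapped in these promoters. A match is a run of letters in this window and was not tested as a binding site.

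In mouse liver after a single TCE dose, all 3 fibrinogen chains lay lower than in corn oil livers. Fga, the alpha chain, had ratios of 0.56, 0.563, 0.77 and 0.59 on the TCE arrays, against 0.791, 1.081, 0.919 and 1.309 on the corn oil arrays. Fgb, the beta chain, had 0.507, 0.439, 0.595 and 0.511 on the TCE arrays, against 0.748, 1.144, 0.986 and 1.014 on the corn oil arrays. Fgg, the gamma chain, had 0.635, 0.626, 0.82 and 0.729 on the TCE arrays, against 0.995, 1.005, 0.953 and 1.119 on the corn oil arrays. In each of the 3 chains every TCE array lay below every corn oil array, with the gap narrowest in Fga, where TCE array 3 came close to corn oil array 1. The share of all probe sets whose groups stood apart was not counted in either species. Here and below, a lack of overlap therefore only describes these genes. The log2 changes, TCE minus corn oil with 4 arrays in each group, were -0.71 ± 0.16 (SE) for Fga, -0.92 ± 0.18 for Fgb and -0.54 ± 0.14 for Fgg.

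After repeated doses the mouse chains again lay lower. Fga had ratios of 0.451, 0.44, 0.473 and 0.432 on the TCE arrays, against 0.986, 1.114, 1.014 and 0.935 on the corn oil arrays. Fgb had 0.309, 0.37, 0.531 and 0.406 on the TCE arrays, against 1.229, 0.982, 1.012 and 0.988 on the corn oil arrays. Fgg had 0.511, 0.619, 0.682 and 0.653 on the TCE arrays, against 1.101, 1.037, 0.963 and 0.86 on the corn oil arrays. The groups did not overlap in any chain, and the 4 TCE values of Fga were the most tightly grouped of the 3 chains. The log2 changes were -1.17 ± 0.16 (SE) for Fga, -1.40 ± 0.18 for Fgb and -0.69 ± 0.14 for Fgg, so that Fgb was at 0.378 of its corn oil value, Fga at 0.444 and Fgg at 0.621.

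**Figure D1:**
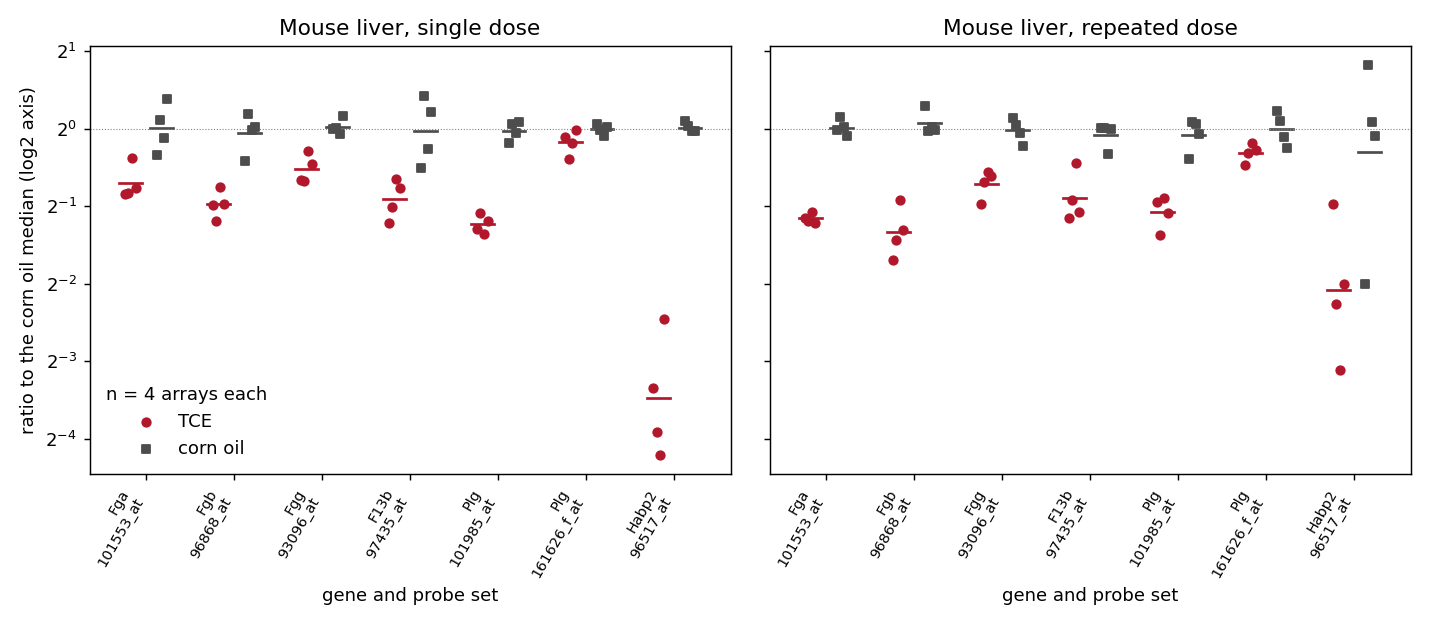
Ratio to the corn oil median (log2 axis) of every mouse probe set of the 6 genes, with TCE arrays as red circles, corn oil arrays as grey squares (4 arrays each) and bars at the group means of log2. The TCE points of Fga, Fgb and Fgg lie below all corn oil points on both schedules, Habp2 reaches 0.0542 after a single dose, and the Plg probe set with the suffix _f_at overlaps its corn oil arrays.

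F13b and Habp2 also lay lower in TCE mice. F13b had ratios of 0.431, 0.495, 0.64 and 0.589 on the TCE arrays after a single dose, against 0.701, 1.344, 0.837 and 1.163 on the corn oil arrays. Repeated dosing gave 0.451, 0.527, 0.739 and 0.477 on the TCE arrays, against 1.002, 1.007, 0.796 and 0.998 on the corn oil arrays. The F13b groups did not overlap on either schedule, although TCE array 3 of the repeated schedule lay just under the lowest corn oil array. The log2 changes were -0.88 ± 0.22 (SE) after a single dose and -0.81 ± 0.22 after repeated doses.

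Habp2, a protease known to activate single-chain urokinase and factor VII in vitro, showed the largest difference of the 6 genes in mice. After a single dose it had ratios of 0.0985, 0.0663, 0.0542 and 0.183 on the TCE arrays, against 1.068, 1.022, 0.978 and 0.978 on the corn oil arrays, a log2 change of -3.49 ± 0.55 (SE). With 14 days of dosing the ratios were 0.509, 0.209, 0.116 and 0.249 on the TCE arrays, against 0.249, 1.761, 1.059 and 0.941 on the corn oil arrays, a log2 change of -1.79 ± 0.55. The groups were far apart after a single dose and overlapped after repeated doses, where corn oil array 1 lay as low as TCE array 4. That corn oil array was the one with a Gapdh 3' minus 5' difference of 1.46. Without it the repeated-dose change was -2.36, which was called.

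The 2 mouse probe sets of Plg differed from each other. The one with the plain suffix _at had ratios of 0.408, 0.47, 0.39 and 0.438 on the TCE arrays after a single dose, against 0.877, 1.04, 0.96 and 1.065 on the corn oil arrays. After repeated doses it had 0.521, 0.386, 0.54 and 0.469 on the TCE arrays, against 0.765, 1.06, 1.045 and 0.955 on the corn oil arrays. Its groups did not overlap, and its log2 changes were -1.21 ± 0.15 (SE) and -0.997 ± 0.15 for the single and the repeated schedule. The one with the suffix _f_at, which marks probes that may match related sequences, had 0.927, 0.76, 0.877 and 0.991 on the TCE arrays after a single dose, against 1.046, 0.989, 0.935 and 1.011 on the corn oil arrays. On the repeated schedule the values were 0.72, 0.805, 0.879 and 0.828 on the TCE arrays, against 1.176, 1.072, 0.928 and 0.841 on the corn oil arrays. Its groups overlapped on both schedules, and its log2 changes were -0.17 ± 0.14 and -0.31 ± 0.14, so the size of the Plg difference in mouse rests on the probe set that is read.

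In the limma fit over all mouse probe sets (Benjamini-Hochberg adjusted p under 0.05), 6 of the 7 probe sets were called lower after a single dose and none higher, the exception being the Plg probe set with the suffix _f_at. Among all 12420 tested probe sets 4.14% were called lower and 4.16% higher. After repeated doses 5 of 7 were called lower and none higher, Habp2 and the same Plg probe set being the exceptions, beside 8.48% lower and 2.24% higher among all probe sets. The median log2 change of the 7 probe sets was -0.88 after a single dose and -0.997 after repeated doses, against -0.09 and -0.15 over all probe sets. The members were chosen with these contrasts known, so the counts and medians describe them and support nothing about the choice.

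The counts in mouse depended on the scaling and on single arrays, while the directions held. With quantile normalization 2 of 7 probe sets were called after a single dose and 0 of 7 after repeated doses. Leaving out corn oil array 2 or TCE array 1 of the single-dose schedule took the count from 6 to 3. Leaving out the arrays with a raised Gapdh difference left 1 TCE array per schedule, too few for the number of calls to bear on the result, but the log2 changes could still be read. Without them the single-dose changes were -0.84 for Fga, -1.13 for Fgb and -0.70 for Fgg. The repeated-dose changes were -1.18, -1.69 and -0.90 in the same order. None of these chain changes was smaller than with all arrays, but each rests on 1 TCE array. The TCE array left lay highest of its group in Plg (suffix _at) after a single dose, at 0.47, and in Habp2 after repeated doses, at 0.509. It lay lowest in F13b after repeated doses, at 0.451, and in the other Plg probe set on both schedules, at 0.76 and 0.72. On the 2 mouse TCE arrays below the limit the Fgb ratio was 0.309 to 0.439, against 0.37 to 0.595 on the 6 above it, and the Habp2 ratio was 0.0663 to 0.509, against 0.0542 to 0.249.

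In rat liver the fibrinogen chains differed little between TCE and corn oil. Fga had ratios of 1.225, 1.03, 1.175 and 1.099 on the single-dose TCE arrays, against 0.965, 0.904, 1.035 and 1.054 on the corn oil arrays (M35601_at), a log2 change of 0.19 ± 0.14 (SE). Repeated dosing gave 1.083, 1.091, 1.198 and 1.176 on the TCE arrays, against 1.042, 0.865, 1.037 and 0.963 on the corn oil arrays, a log2 change of 0.22 ± 0.14. The groups overlapped slightly on the single-dose schedule and stood narrowly apart, TCE above corn oil, on the repeated one. The other Fga probe sets had log2 changes of 0.21 ± 0.14 and 0.07 ± 0.14 (M35601_g_at) and of -0.05 ± 0.23 and -0.26 ± 0.23 (rc_AA875097_at) for the single and the repeated schedule, and their groups overlapped.

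Rat Fgb depended on the probe set. U05675_at had ratios of 1.04, 0.872, 0.82 and 0.79 on the single-dose TCE arrays, against 0.986, 1.014, 0.91 and 1.037 on the corn oil arrays, a log2 change of -0.17 ± 0.16 (SE). After repeated doses it had 0.898, 0.717, 0.771 and 0.756 on the TCE arrays, against 1.211, 0.912, 1.088 and 0.895 on the corn oil arrays, a log2 change of -0.38 ± 0.16. The groups overlapped on both schedules, after repeated doses only at the highest TCE and the lowest corn oil array. M35602_at spread widely, with 0.834 to 1.688 on the single-dose TCE arrays, against 0.579 to 1.401 on the corn oil arrays. Over the longer schedule the ratios were 0.626 to 0.86 on the TCE arrays, against 0.293 to 1.447 on the corn oil arrays. Its log2 changes of 0.50 ± 0.44 and -0.09 ± 0.44 lay within about their SE of 0.

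Rat Fgg lay slightly higher in TCE livers. J00735_g_at had ratios of 1.128, 0.977, 1.419 and 1.171 on the single-dose TCE arrays, against 0.926, 1.014, 0.986 and 1.163 on the corn oil arrays, a log2 change of 0.19 ± 0.15 (SE). On the repeated schedule the values were 1.266, 1.217, 1.432 and 1.224 on the TCE arrays, against 0.93, 1.029, 1.071 and 0.971 on the corn oil arrays, a log2 change of 0.36 ± 0.15. The groups overlapped after a single dose and not after repeated doses. J00735_at had log2 changes of 0.36 ± 0.20 and 0.23 ± 0.20, with overlapping groups.

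**Figure D2:**
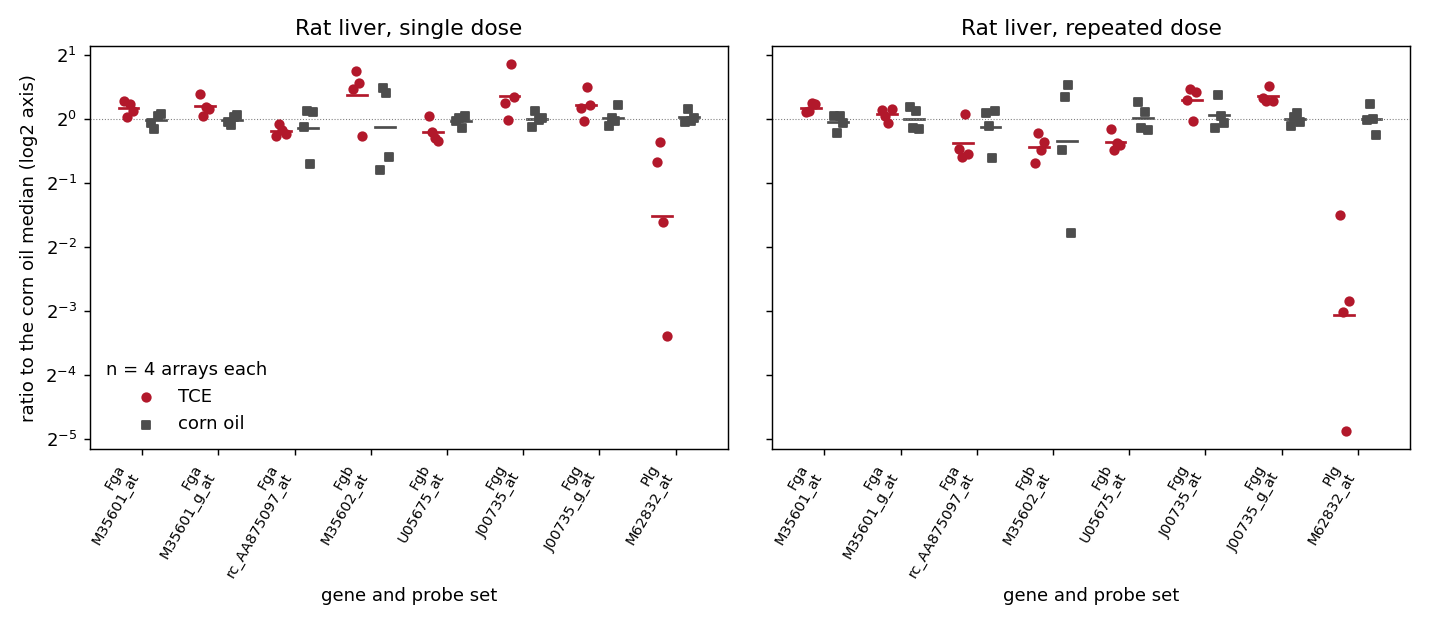
Ratio to the corn oil median (log2 axis) of every rat probe set of Fga, Fgb, Fgg and Plg, with TCE arrays as red circles, corn oil arrays as grey squares (4 arrays each) and bars at the group means of log2. The chain points lie around 1 in both groups, and Plg falls to 0.0341 on a TCE array of the repeated schedule.

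Rat Plg stood apart from the chains. It had ratios of 0.629, 0.783, 0.327 and 0.0957 on the single-dose TCE arrays, against 0.97, 1.12, 0.981 and 1.019 on the corn oil arrays (M62832_at), a log2 change of -1.53 ± 0.64 (SE). After repeated doses it had 0.353, 0.124, 0.0341 and 0.139 on the TCE arrays, against 0.994, 1.185, 1.006 and 0.847 on the corn oil arrays, a log2 change of -3.06 ± 0.64. Every TCE array lay below every corn oil array on both schedules, but the TCE arrays differed widely among themselves. The lowest array of each schedule was one with a raised Gapdh difference: the ratio was 0.0341 to 0.139 on the 3 rat TCE arrays above the limit, against 0.124 to 0.783 on the 5 below it. Without the raised arrays the log2 changes were -0.91 and -2.26, and the repeated-dose change was still called. The limit of 1 does not remove smaller Gapdh differences. Among rat TCE arrays the ratio ran from 0.783 at a difference of -0.66 to 0.0341 at 2.07. The array with 0.124, kept below the limit, had a difference of 0.82. How far Plg followed the Gapdh difference below the limit was not tested.

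**Figure D3:**
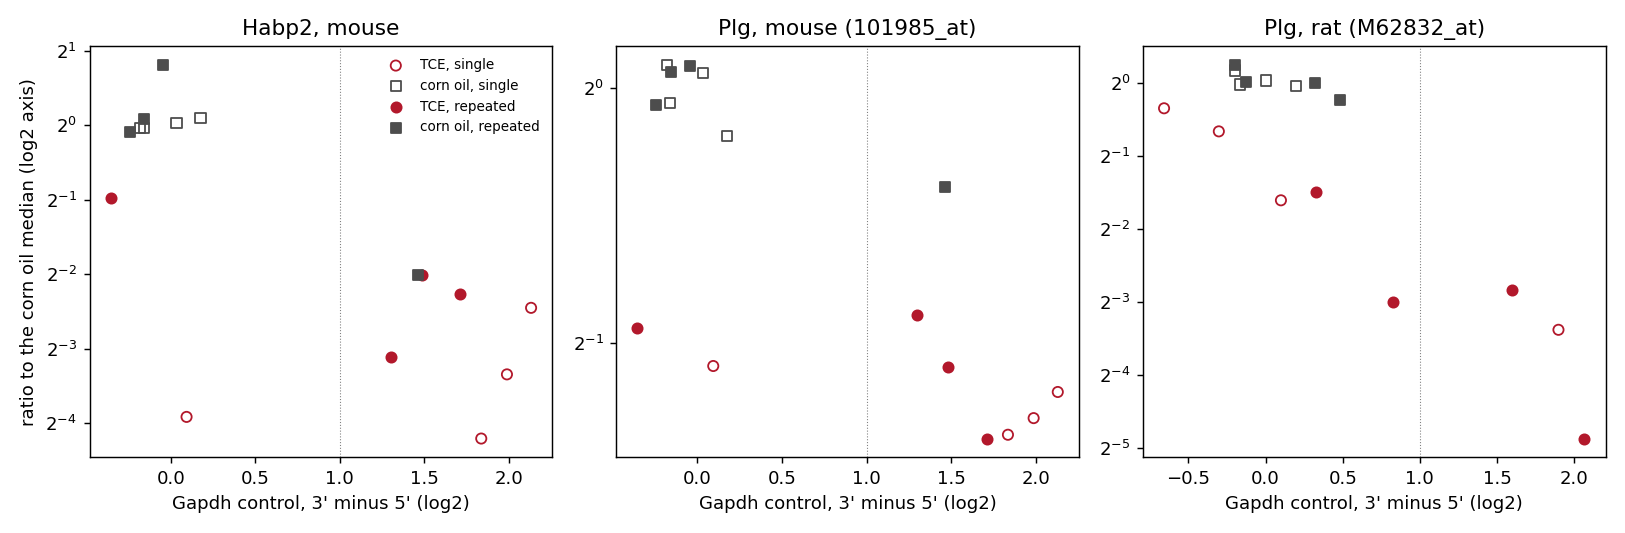
Ratio to the corn oil median (log2 axis) of mouse Habp2, mouse Plg and rat Plg against the log2 difference between the 3' and 5' Gapdh probe sets of each array, with TCE as red circles and corn oil as grey squares (open after a single dose, filled after repeated doses) and a dotted line at 1. The mouse corn oil array right of the line has a Habp2 ratio of 0.249, and mouse Plg lies between 0.386 and 0.54 on TCE arrays on both sides of the line.

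In rat, 0 of 8 probe sets were called after a single dose, beside 0.504% lower and 1.21% higher among the 8732 tested. An unadjusted p under 0.05 in limma's fit was found for 1 of 8 probe sets, beside 941 of 4736 rat genes, each read from 1 probe set. After repeated doses 1 of 8, Plg, was called lower and none higher, beside 0.676% lower and 2.2% higher among all probe sets. On that schedule 3 of 8 had an unadjusted p under 0.05 in limma's fit, beside 880 of 4736 rat genes. They were Plg, Fgb U05675_at (lower) and Fgg J00735_g_at (higher). The median log2 change of the 8 probe sets was 0.19 after a single dose and -0.01 after repeated doses, against 0.14 and 0.04 over all probe sets. The repeated-dose Plg call was lost with quantile normalization (log2 change -2.63) and when corn oil array 1 or TCE array 2 of that schedule was left out.

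The 2 schedules were compared as the repeated-dose change minus the single-dose change. In mouse this difference was -0.46 ± 0.23 (SE) for Fga, -0.49 ± 0.26 for Fgb, -0.15 ± 0.20 for Fgg and 0.06 ± 0.32 for F13b. For Habp2 it was 1.71 ± 0.78, the smaller change being that of repeated doses. No member passed in limma's fit (adjusted p 0.255 for Habp2 to 0.938 for F13b), and 0.878% of all mouse probe sets were called. Of the members 1 of 7, Habp2, had an unadjusted p under 0.05, beside 2338 of 12420 mouse probe sets. In rat no member passed (adjusted p 0.58 for Plg and higher elsewhere) and none had an unadjusted p under 0.05. The rat Plg difference was -1.53 ± 0.90, and 0% of all rat probe sets were called, 817 having an unadjusted p under 0.05.

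The 3 chains make 1 protein, so their changes were also compared with one another within each array, where the scaling of the array cancels. The chains and this comparison were chosen with earlier results of these data known. In both species the p-values of the chain pairs therefore only describe these arrays. In mouse Fgb lay lower against Fgg on TCE arrays. The difference Fgb minus Fgg, in log2 ratios, ran from -0.51 to -0.32 on the single-dose TCE arrays, against -0.41 to 0.19 on the corn oil arrays. The repeated-dose difference ran from -0.74 to -0.36 on the TCE arrays, against -0.08 to 0.20 on the corn oil arrays, so the groups overlapped on the single-dose schedule only. Over both schedules the mean TCE minus corn oil difference of Fgb minus Fgg was -0.55 (exact two-sided permutation test within schedules, 8 TCE and 8 corn oil arrays, adjusted p = 0.00245 over 6 pairs). The same mean was -0.33 for Fga minus Fgg (adjusted p = 0.00918, same exact test). It was 0.22 for Fga minus Fgb, which did not pass (adjusted p = 0.0725, same exact test). Each mouse chain had 1 probe set, so unequal transcripts cannot be told apart from unequal probe set responses, which were not tested. For mouse Plg, 1 gene, the probe set of suffix _at changed by -1.21 after a single dose and that of suffix _f_at by -0.17. After repeated doses they changed by -0.997 and -0.31, in the same order.

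In rat the chain readings also differed from one another when Fgb was read from U05675_at. Fga minus Fgb ran from 0.24 to 0.52 on the single-dose TCE arrays, against -0.17 to 0.19 on the corn oil arrays. The repeated-dose difference ran from 0.27 to 0.64 on the TCE arrays, against -0.22 to 0.11 on the corn oil arrays, with no overlap on either schedule. Over both schedules the mean TCE minus corn oil difference of Fga minus Fgb was 0.48 (exact permutation test, adjusted p = 0.00245), with a raw p of 0.000408, the smallest this design allows. The same mean was -0.55 for Fgb minus Fgg (exact permutation test, adjusted p = 0.00245) and -0.07 for Fga minus Fgg (adjusted p = 0.356, same exact test). Read from M35602_at, a reading added after the values were seen, neither difference with Fgb passed (0.0034 for Fga minus Fgb and -0.07 for Fgb minus Fgg), so the rat result belongs to 1 of 2 Fgb probe sets.

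**Figure D4:**
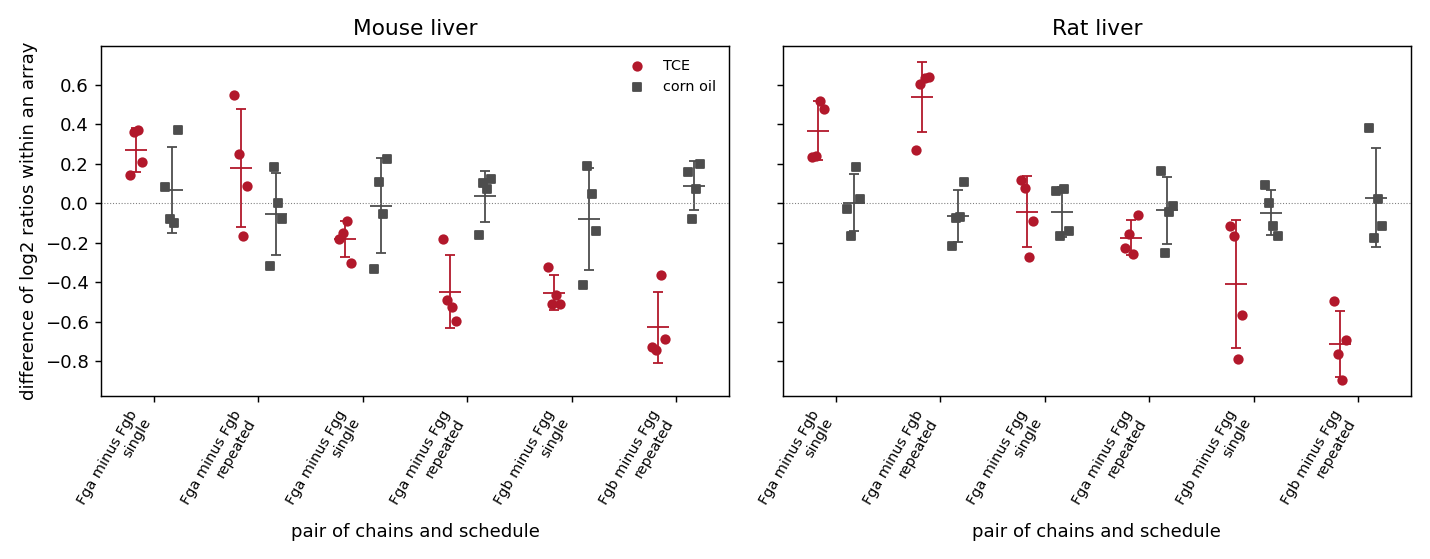
Difference of the log2 ratios of 2 fibrinogen chains within an array, for each pair and schedule, with TCE arrays as red circles, corn oil arrays as grey squares (4 arrays each) and bars for the mean and SD. Fgb minus Fgg lies lower on TCE arrays in both species, and Fga minus Fgb lies higher on TCE arrays in rat without overlap.

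Within single schedules no pair passed (12 tests, 4 against 4 arrays, lowest adjusted p 0.0686 in the exact permutation test, 5 with an unadjusted p under 0.05). In mouse the within-group SD over 16 arrays was 0.20 for Fga, 0.24 for Fgb and 0.16 for Fgg. The differences with Fgg spread less than Fga or Fgb alone but more than Fgg alone, with 0.17 for Fga minus Fgg and 0.18 for Fgb minus Fgg. Fga minus Fgb had 0.22, more than Fga alone. Without the arrays of raised Gapdh difference the mouse changes were -0.61 for Fgb minus Fgg and -0.21 for Fga minus Fgg, with 1 TCE array per schedule, where the exact test cannot reach the threshold. With that Gapdh difference as a covariate Fgb minus Fgg still passed at -0.58 and Fga minus Fgg did not at -0.17.

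The species were compared as the mouse change minus the rat change over the 3055 genes measured in both. For Fga this difference was -0.91 ± 0.20 (SE) after a single dose and -1.39 ± 0.20 after repeated doses. For Fgb it was -0.74 ± 0.23 and -1.02 ± 0.23, and for Fgg -0.73 ± 0.19 and -1.05 ± 0.19 in the same order of schedules. All 3 chains thus lay lower in the mouse contrast, beside a median over all shared genes of -0.19 after a single dose and -0.23 after repeated doses. For Plg the difference ran the other way, at 1.37 ± 0.67 and 2.75 ± 0.67 with the mouse probe set of suffix _f_at, and at 0.33 and 2.06 with the other mouse probe set.

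After a single dose 2 of the 4 genes were called (Fga and Fgg), beside 4.22% of the shared genes, and after repeated doses all 4 were called, beside 10.5%. Since the genes were chosen with the changes in both species known, these calls describe them. With array medians centred 1 was called after a single dose, with quantile normalization 0 after a single dose and 1 after repeated doses, and the directions held. Without the arrays of raised Gapdh difference, with 1 mouse TCE array left per schedule, 0 were called after a single dose and 3 after repeated doses. The single-dose count was 1 without mouse corn oil array 4, mouse TCE array 1 or 2, rat corn oil array 1 or rat TCE array 3.

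**Figure D5:**
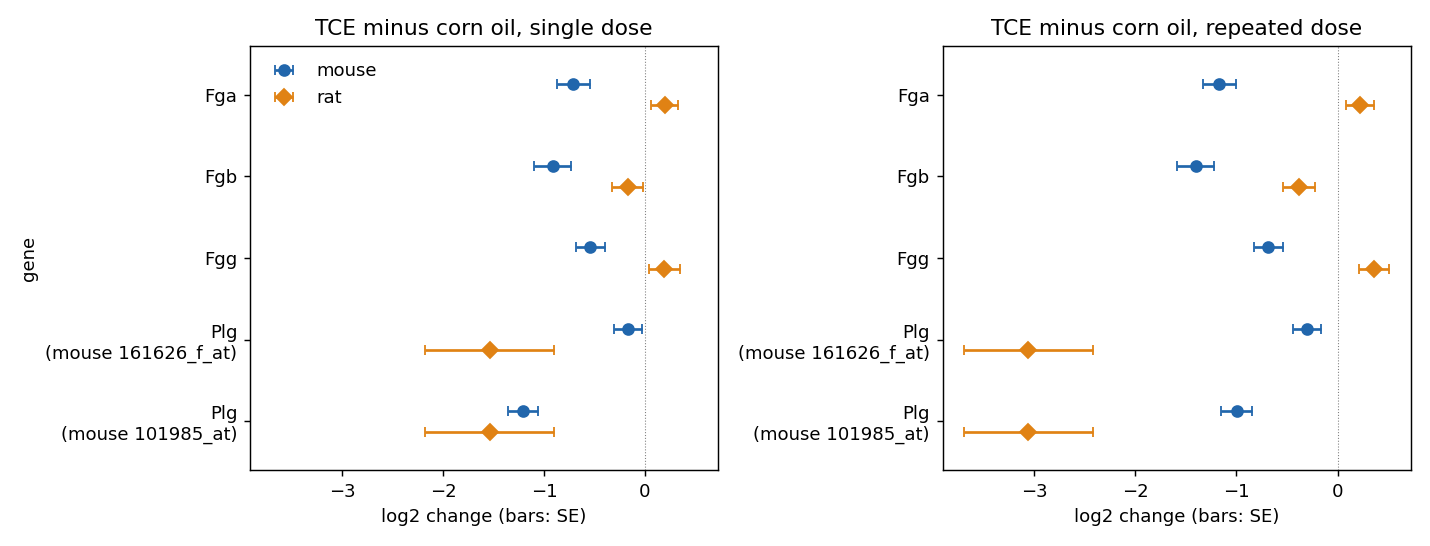
Log2 change, TCE minus corn oil, in mouse (blue circles) and rat (orange diamonds) for the genes measured in both, from the fit of each species, with bars for the SE and 4 arrays in each group. The 3 mouse chains lie between -1.40 and -0.54 and the rat chains between -0.38 and 0.36, and Plg is drawn against each mouse probe set.

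The neighbour of the chain cluster on mouse chromosome 3, Plrg1, a spliceosome component, had log2 changes of -0.46 ± 0.26 (SE) after a single dose and -0.59 ± 0.26 after repeated doses, neither of them called. By correlation over the 16 mouse arrays with the mean of the 3 chains, the most alike of 8244 genes were Mug1 (r = 0.978), Nnt (0.973), Rdh7 (0.966), Ces1c (0.964) and Dpp7 (0.953). Mug1 encodes murinoglobulin, a plasma protease inhibitor made by the liver, and Nnt a mitochondrial transhydrogenase. These 16 points share the TCE and corn oil difference, since each of the 5 genes also lay lower on TCE arrays, with log2 changes of -0.61 to -0.95 after a single dose. In rat the highest of 4732 genes were Rpl31 (r = 0.742) and Acvr2b (0.736).

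Other genes of fibrinolysis and coagulation were read from lists that were also chosen with earlier results known. Over all 8250 mouse genes 391 were called higher and 377 lower after a single dose, and 197 higher and 777 lower after repeated doses. Of these genes 2128 and 2376 had an unadjusted p under 0.05 in limma's fit, in the same order of schedules. Of 13 measured fibrinolysis partners in mouse, 1 was called higher and 2 lower after a single dose, and 2 higher and 4 lower after repeated doses, with median log2 changes of -0.29 and -0.52 beside -0.08 and -0.16 over all genes. S100a10, which with annexin A2 presents plasminogen to its activator at cell surfaces, was higher at 1.25 ± 0.19 (SE) and 0.73 ± 0.19. Klkb1, plasma prekallikrein, was lower at -0.61 ± 0.18 and -0.93 ± 0.18, and Vtn, the partner that stabilises the activator inhibitor PAI-1, at -0.74 ± 0.20 and -0.82 ± 0.20. After repeated doses Serpinf2, the main plasmin inhibitor, was higher at 0.62 ± 0.14.

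Of 20 other coagulation factors and inhibitors in mouse, 7 were called lower after a single dose and 9 after repeated doses, and none higher. F2, prothrombin, was lower at -1.07 ± 0.21 (SE) and -1.18 ± 0.21, and Ggcx, the carboxylase of vitamin K-dependent factors, at -0.90 ± 0.25 and -1.37 ± 0.25. Proc, protein C, was lower at -0.98 ± 0.19 and -0.93 ± 0.19. Serpinc1, antithrombin, was lower after a single dose at -0.82 ± 0.21, and Pros1, protein S, after repeated doses at -1.13 ± 0.24.

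Over all 4736 rat genes 55 were called higher and 25 lower after a single dose, and 111 higher and 32 lower after repeated doses. Of these genes 941 and 880 had an unadjusted p under 0.05 in limma's fit, in the same order of schedules. In rat, 0 of 11 fibrinolysis partners were called after a single dose (3 had an unadjusted p under 0.05 in limma's fit) and 1 was lower after repeated doses (Vtn, -0.67 ± 0.16). Of 14 other coagulation genes in rat, 1 was lower after a single dose (F10, -0.93 ± 0.18) and 0 after repeated doses (1 unadjusted).

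Of 21 mouse genes listed under the acute phase response to IL-6, 3 were called lower and 0 higher after a single dose. After repeated doses 9 were called lower and 1 higher. Saa4 and the receptor gene Lifr were called lower on each schedule, so these counts are not those of induced acute phase genes alone. Saa4, a serum amyloid A protein made constitutively, had the largest change of the list, at -3.57 ± 0.66 (SE) and -2.30 ± 0.66. Lifr, a receptor of the IL-6 cytokine family, was lower at -0.88 ± 0.16 and -1.35 ± 0.16. Hamp, hepcidin, was lower after a single dose at -0.71 ± 0.17 and also called lower after repeated doses, at -1.29 ± 0.17. After repeated doses Itih4, an inter-alpha-trypsin inhibitor heavy chain, was lower at -1.55 ± 0.21 and Orm1, orosomucoid, at -1.30 ± 0.26. The 1 gene called higher, named after its value was seen, was Lcn2, lipocalin, at 0.59 ± 0.16. Of 15 regulators of fibrinogen transcription 1 was called after a single dose, Ppara, higher at 0.56 ± 0.14, and 0 after repeated doses (5 unadjusted). In rat 0 of 17 genes of the acute phase list were called on either schedule (2 and 1 unadjusted). Of 13 regulators in rat 0 were called after a single dose (2 unadjusted) and 1 higher after repeated doses (Onecut1, 3.67 ± 0.93).

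PPARalpha target genes rose in mouse, 8 of 10 being called on each schedule. Cyp4a14, a fatty acid omega-hydroxylase, had log2 changes of 4.46 ± 0.58 (SE) and 5.22 ± 0.58, and its relative Cyp4a10 had 2.19 ± 0.60 and 2.97 ± 0.60. Acot1, an acyl-CoA thioesterase, had 2.38 ± 0.23 and 2.18 ± 0.23, and Ehhadh, a peroxisomal beta-oxidation enzyme, had 2.02 ± 0.17 and 2.35 ± 0.17. In rat 0 of 9 were called after a single dose (3 unadjusted) and 4 after repeated doses. The 4 were Acaa1b, a peroxisomal thiolase, at 3.37 ± 0.30, Pex11a, which acts in peroxisome division, at 1.88 ± 0.20, Ehhadh at 1.48 ± 0.31 and Aldh3a2, a fatty aldehyde dehydrogenase, at 1.02 ± 0.20. Of 11 abundant secreted liver proteins in mouse 3 were called lower on each schedule and none higher, and 0 of 12 in rat (4 and 1 unadjusted). Apob was lower in mouse at -0.77 ± 0.20 and -1.72 ± 0.20 and Apoh at -0.53 ± 0.14 and -0.63 ± 0.14, with Apoa2 at -0.71 ± 0.13 after a single dose and Ambp at -0.84 ± 0.17 after repeated doses.

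Marker lists of several cell types also differed between the mouse groups. The mean log2 ratio of 10 hepatocyte markers was -0.31 to -0.27 on single-dose TCE arrays, against -0.13 to 0.11 on the corn oil arrays, and -0.51 to -0.30 on repeated-dose TCE arrays, against -0.22 to 0.16. For 10 macrophage markers it was -0.66 to -0.40 on single-dose TCE arrays, against -0.26 to 0.16, and -0.87 to -0.42 on repeated-dose TCE arrays, against -0.79 to 0.22. For 9 stellate cell markers it was -0.90 to -0.36 on single-dose TCE arrays, against -0.31 to 0.23, and for 3 erythroid markers -0.63 to -0.40, against -0.24 to 0.23. The groups did not overlap in these lists after a single dose, and after repeated doses they overlapped in all mouse lists but the hepatocyte one. The erythroid mean after a single dose came mostly from Alas2, at -1.30, beside -0.03 for Hba-a1 and -0.20 for Slc4a1, neither of them called. The platelet, endothelial, leukocyte and exocrine pancreas lists overlapped on both mouse schedules. The median log2 ratio over all mouse probe sets was itself lower on TCE arrays. After a single dose it was -0.115 to -0.068 on TCE arrays, against -0.016 to 0.026 on corn oil arrays. After repeated doses it was -0.194 to -0.138, against -0.013 to 0.013. Its part in the list means was not tested.

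Single markers called in mouse after a single dose were Apoa2, lower among the hepatocyte markers, Ptprb, an endothelial phosphatase, higher at 2.61 ± 0.42 (SE), and Alas2, of erythroid haem synthesis, lower at -1.30 ± 0.20. They were 1 of 10 hepatocyte, 1 of 9 endothelial and 1 of 3 erythroid markers. After repeated doses they were Tat, the hepatocyte tyrosine aminotransferase, at -0.59 ± 0.18, Csf1r and C1qa of macrophages at -0.63 ± 0.15 and -0.99 ± 0.29, the endothelial receptor Tek at -1.03 ± 0.26, the leukocyte phosphatase Ptprc at -1.99 ± 0.52, Alas2 at -0.98 ± 0.20 and Col1a2, a collagen of stellate cells, higher at 1.14 ± 0.14. In rat the hepatocyte markers were -0.29 to -0.14 on single-dose TCE arrays, against -0.08 to 0.06, and every other rat list overlapped on both schedules, the hepatocyte one also overlapping after repeated doses. Of 3 endothelial markers in rat, Pecam1 at -1.43 ± 0.26 and Lyve1 at 1.13 ± 0.22 were called after repeated doses. The part of these markers and of the Gapdh difference in the values of the 6 genes was not tested beyond the values above, and ratios cannot show which markers are absent.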

How the data were processed

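Liver RNA of 32 arrays (16 mouse, 16 rat, 8 groups of 4) was measured on Affymetrix arrays and signals were made with MAS5, per the submitters' processing notes. As deposited, the values are ratios to corn oil, and tested on the files the median of the 4 corn oil arrays of each schedule was 1 for every probe set (within 0.0005). How arrays were scaled is not stated by any source used here. With 4 arrays per group, precision is limited by their number.

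Control probe sets (66 mouse, 59 rat) and those with missing or non-positive values (2 and 8) were left out. Log2 ratios were fitted with limma 3.58.1 (R 4.3.3) over the 16 arrays of a species, or all 32 for the species comparison, and p-values were Benjamini-Hochberg adjusted over all probe sets or shared genes with a threshold of 0.05. In the chain and species comparisons each gene was read from its least variable probe set within groups (for mouse Plg that of suffix _f_at, and rat Fga M35601_at, Fgb U05675_at and Fgg J00735_g_at). Each gene of the lists was also read from 1 probe set. Chain differences were compared with exact permutation tests over 4900 relabelings (70 per schedule). The members, gene lists and tests were chosen with earlier results of these data known. Every probe set of the members is named, with up to 4 called genes of largest change per pathway list and comparison, every called cell type marker and the 5 genes most correlated with the mean of the chains. Lcn2 and Hamp after repeated doses, and Serpinf2, Hba-a1 and Slc4a1 after a single dose, all in mouse, are named beyond these. Same-numbered arrays did not deviate together (0 of 16 pairs with a correlation over 0.1, from -0.17 to 0.08), so the numbers were not taken as pairs. Promoters and gene order came from RefSeq (GRCm38.p6, mouse only). The fit was tested on simulated data. Alternatives were quantile normalization, centring, log2(ratio + 1), probe sets averaged per gene, the Gapdh difference as a covariate or as a limit, a replicate block, only the groups compared, the noisiest 40% of probe sets left out, each array left out in turn, and other probe sets per gene (chosen after seeing the data). Figures were drawn with matplotlib 3.10.9 (Python 3.11.15).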

Additional observations from a re-analysis of the deposited data

Results flagged for a closer look

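In all, 3 values stood far from the other arrays of their group, by the size of their gap to the nearest array relative to the whole range, among 60 groups of 4 arrays looked at; chance alone flags about 1 in 20 groups. They were Fga on mouse single-dose TCE array 3 (ratio 0.77, the highest of its group), Fgb on mouse repeated-dose corn oil array 1 (1.229, the highest) and F13b on mouse repeated-dose corn oil array 3 (0.796, the lowest). Corn oil array 1 of the repeated schedule was also the corn oil array with a raised Gapdh 3' minus 5' difference and a Habp2 ratio of 0.249.

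The change with TCE differed between the species past limma's adjusted threshold of 0.05. Mouse minus rat, the log2 difference was -0.91 for Fga and -0.73 for Fgg after a single dose. After repeated doses it was -1.39 for Fga, -1.02 for Fgb, -1.05 for Fgg and 2.75 for Plg. The genes were chosen with the changes in both species known. The Plg difference depends on the mouse probe set and was 2.06 with the other mouse probe set.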

How the results depend on the processing

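The directions of the called TCE changes held under every alternative run, while the number of calls depended on scaling, on the model and on single arrays, and apart from fits with fewer arrays the cause was not tested. Of the mouse single-dose calls (6 of 7 probe sets), 2 were left with quantile normalization, 3 with only the groups compared, 2 with the replicate block and 1 without arrays of 5' loss (a Gapdh 3' minus 5' difference above 1), which left 1 TCE array per mouse schedule, too few to bear on stability. Of the mouse repeated-dose calls (5 of 7), 0, 3, 3 and 0 were left in the same order. The rat repeated-dose call of Plg was lost (0 left) with quantile normalization, only the groups compared, the replicate block and without the noisiest probe sets. Of the species calls, 2 after a single dose became 0 with quantile normalization, only the groups compared, the replicate block and without arrays of 5' loss, and 1 with centring or with Fga read from rc_AA875097_at, and 4 after repeated doses became 1 with quantile normalization. The 2 chain differences called in mouse became 1 with quantile normalization or the replicate block and 0 without arrays of 5' loss, a design with too few relabelings to pass, and the 2 called in rat became 0 with probe sets averaged per gene or with Fgb read from M35602_at. Under the replicate block, whose numbers did not pair arrays (5 of 16 correlated best with their own number), no other count moved by over 1.5 times.

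With each array left out in turn, calls ranged from 3 to 6 in mouse after a single dose, 4 to 5 in mouse after repeated doses, 0 to 1 in rat after repeated doses, 1 to 3 for the species after a single dose, and 2 to 3 for the chains in mouse. They were 4 to 4 for the species after repeated doses and 2 to 2 for the chains in rat. The single-dose species count was 1 without mouse corn oil array 4, mouse TCE array 1 or 2, rat corn oil array 1 or rat TCE array 3. The chain count in mouse after a single dose ranged from 0 to 2, the 2 arising without corn oil array 1.

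Directions turned only among small differences that were not called. They were, in mouse schedule differences, Fgg 0.037 with quantile normalization, Plg (suffix _f_at) 0.037 with the mean of probe sets and F13b -0.058 without arrays of 5' loss (-0.089 to 0.22 with arrays left out). In rat, the single-dose change of Fgb U05675_at became 0.16 with the mean of probe sets, and the repeated-dose change of Fgb M35602_at became 0.38 with the 5' loss covariate (-0.57 to 0.20 with arrays left out). The rat Fga M35601_at schedule difference became -0.11 with the mean of probe sets and -0.049 without arrays of 5' loss (-0.029 to 0.070 with arrays left out). For rat single-dose chains, Fga minus Fgg became -0.0020 with log2(ratio + 1), -0.16 with the mean of probe sets, -0.24 with Fga from rc_AA875097_at and -0.16 with Fgg from J00735_at (-0.051 to 0.079 with arrays left out). There Fga minus Fgb became -0.046 with the mean of probe sets and -0.31 with Fgb from M35602_at, which also gave 0.31 for Fgb minus Fgg. With arrays left out, Fga rc_AA875097_at after a single dose ranged from -0.23 to 0.046 and the Fgg J00735_at schedule difference from -0.25 to 0.042.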
